A study of Mus musculus with 2 samples.

Results

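Vascular endothelial growth factor (VEGF) ligands and their receptors were followed through the nuclei of an ischaemic mouse muscle. The members are 10 genes taken by name, of 32285 genes measured: the ligands Vegfa, Vegfb, Vegfc, Vegfd and Pgf, the receptor tyrosine kinases Flt1, Kdr and Flt4, and the co-receptors Nrp1 and Nrp2. The muscle was the tibialis anterior, which lifts the foot, taken from males of 16 to 20 weeks. The animals had chronic kidney disease, and their femoral artery had been ligated 5 days earlier. One library was labelled AHRfl/fl and one AHRmKO, so each group had 1 library, and neither the number of animals nor any pooling is stated. The strain given is the same for both groups: mice with a floxed gene for the aryl hydrocarbon receptor (AHRtm3.1Bra/J), a transcription factor that responds to small molecules, bred to the transgenic line Tg(ACTA1-cre/Esr1*)2Kesr/J, whose skeletal actin promoter expresses a Cre recombinase fused to an oestrogen receptor domain. The labels give neither the induction of the Cre nor whether the AHRfl/fl mice carried it. With 1 library per group there was no replicate and no test between groups. Every interval below is a 95% interval that covers counting error only.

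In skeletal muscle, VEGF-A from fibres and stromal cells acts on endothelial cells, mainly through the signalling receptor VEGFR-2 (gene Kdr), while VEGFR-1 (Flt1) binds VEGF-A tightly with weak kinase activity and also binds VEGF-B and placental growth factor (Pgf). VEGF-C and VEGF-D are ligands of VEGFR-3 (Flt4), known for the growth of lymphatic vessels, and VEGF-C after processing can bind VEGFR-2. Neuropilins (Nrp1, Nrp2) bind VEGFs as co-receptors without a kinase and also bind class 3 semaphorins together with plexins.

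Promoter windows of RefSeq (GRCm38.p6) were found for 10 of the 10 members, 12 windows in all. The windows shown belong to the members whose levels are called different between libraries below: Vegfa, which has 2 start sites, Kdr and Vegfc. Each is the 250 bases upstream of a start site, 5′ to 3′ on the strand of the gene. Capitals mark GCGTG, the core that the AHR dimer binds, or ACGTG, the core of hypoxia response elements that also lies within the E-box CACGTG, on either strand. 
Vegfa, upstream start, chr17:46032378-46032627, minus strand: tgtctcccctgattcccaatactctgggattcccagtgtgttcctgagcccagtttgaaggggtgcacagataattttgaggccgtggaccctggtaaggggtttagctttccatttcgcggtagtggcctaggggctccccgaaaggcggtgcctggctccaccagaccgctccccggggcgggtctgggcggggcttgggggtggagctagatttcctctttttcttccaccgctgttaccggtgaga
Vegfa, internal start, chr17:46025164-46025413, minus strand: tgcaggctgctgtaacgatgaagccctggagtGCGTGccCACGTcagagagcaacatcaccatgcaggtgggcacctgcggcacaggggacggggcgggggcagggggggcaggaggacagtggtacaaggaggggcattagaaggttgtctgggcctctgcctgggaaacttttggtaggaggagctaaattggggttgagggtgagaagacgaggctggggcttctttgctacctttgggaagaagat
Kdr, chr5:75978456-75978705, minus strand: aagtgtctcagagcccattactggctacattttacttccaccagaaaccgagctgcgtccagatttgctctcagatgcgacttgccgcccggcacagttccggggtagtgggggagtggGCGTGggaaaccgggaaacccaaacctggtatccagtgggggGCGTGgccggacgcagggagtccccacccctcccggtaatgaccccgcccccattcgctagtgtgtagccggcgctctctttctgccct
Vegfc, chr8:54077282-54077531, plus strand: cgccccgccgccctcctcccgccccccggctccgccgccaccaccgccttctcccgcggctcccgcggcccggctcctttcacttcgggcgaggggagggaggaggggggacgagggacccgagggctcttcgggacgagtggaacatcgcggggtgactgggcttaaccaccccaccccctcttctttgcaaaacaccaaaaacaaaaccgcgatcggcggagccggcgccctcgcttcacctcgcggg
The window at the internal start of Vegfa held 1 GCGTG and 1 ACGTG, 218 and 211 bases upstream, and the Kdr window held 2 GCGTG, 131 and 89 bases upstream. The internal Vegfa window lies inside the gene (46016993 to 46032369), so its bases are also transcribed from the upstream start. Its matches are not upstream of the gene as a whole. Neither motif was found in the upstream Vegfa window or in that of Vegfc. The longer form TNGCGTG was found in none of the windows shown, and in 4.1% of all RefSeq windows. Among all 32851 RefSeq promoter windows of this length, 28.2% held GCGTG and 16.6% held ACGTG, so a match is a common property and only a description.

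The AHRfl/fl library gave 15832 nuclei and the AHRmKO library 7522, with median depths of 3670 and 3602 unique molecular identifiers (UMIs, 1 per captured RNA molecule) and median mitochondrial shares of 0.82% and 2.29%. Of the nuclei kept, 31 barcodes occurred in both libraries. Joint clustering gave 20 clusters, of which 17 were named from marker genes into 9 classes, and 11 clusters drew over 90% of their nuclei from 1 library. The members took no part in the clustering or the naming. The classes held 373 and 588 adult fibre-like, 2297 and 1567 regenerating fibre-like, 2671 and 2052 satellite cell or myoblast-like, 6381 and 2417 macrophage or monocyte-like, 1395 and 620 fibroadipogenic or fibroblast-like, 244 and 132 endothelial-like and 107 and 76 adipocyte-like nuclei. In these 7 classes, those with 50 or more nuclei in each library, at least 6 markers of the class stood 2-fold or more above the other nuclei in both libraries and no marker was at 0. The differentiating myocyte-like class held 1321 and 3 nuclei and the erythroid-like class 3 and 20, and 1040 and 47 nuclei stayed unnamed. Free RNA was estimated at 12.6% to 28.4% of the UMIs of a nucleus, depending on the library and the profile.

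Adult fibre nuclei of the 2 libraries fell into different clusters. Cluster 6 held 371 of the 373 adult fibre-like nuclei of the AHRfl/fl library and 68 of the 588 of the AHRmKO library, and the remaining 520 of the latter were in cluster 19. The leading genes of cluster 6 included Trp63, Trim63 and Fbxo32, of which Trim63 and Fbxo32 encode ubiquitin ligases of muscle atrophy, as well as Myo18b, a marker used here for regenerating fibres, but none of the adult fibre markers. Cluster 19 was led by Agbl1, Mylk4 and Hs3st5, and Mylk4 is an adult fibre marker. Of the 12 markers 9 passed the 2-fold limit in the adult fibre-like nuclei of the AHRfl/fl library and 11 in those of the AHRmKO library. Because of these differences, ratios of adult fibre nuclei between libraries were taken in cluster 6, and values of the whole class describe each library on its own. Regenerating fibre nuclei also lay in different clusters: 2248 of 2297 of the AHRfl/fl library were in cluster 4 and 1566 of 1567 of the AHRmKO library in cluster 16.

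Ahr, the targeted gene, had 37.3 CPM (UMIs of the gene per 1000000 UMIs of the class) in regenerating fibre nuclei of the AHRfl/fl library and 33.3 in those of the AHRmKO library, a log2 ratio of -0.16 (-0.38 to 0.05). In cluster 16 it had 1 UMI and 279 (5.73 and 33.4 CPM, log2 2.54, 0.06 to 7.85), which passed 2-fold with an interval above 0, as 2.2% of genes did there. In adult fibre nuclei it had too few UMIs to compare: cluster 6 held 6 and 1. The counts are per gene and do not show the floxed exon, so they do not check the deletion, and the libraries are named by their labels throughout.

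Pgf, Flt1, Kdr, Flt4 and Nrp2 were each highest in endothelial-like nuclei in both libraries, at least 2-fold above the next class, whereas the other 5 members had no class that led in that way. Among the 15417 genes with enough UMIs, 16.2% were marked by any 1 class and 2.69% by endothelial-like nuclei. Levels are compared here between classes for 1 gene at a time, since levels of different genes also depend on their length.

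**Figure D1:**
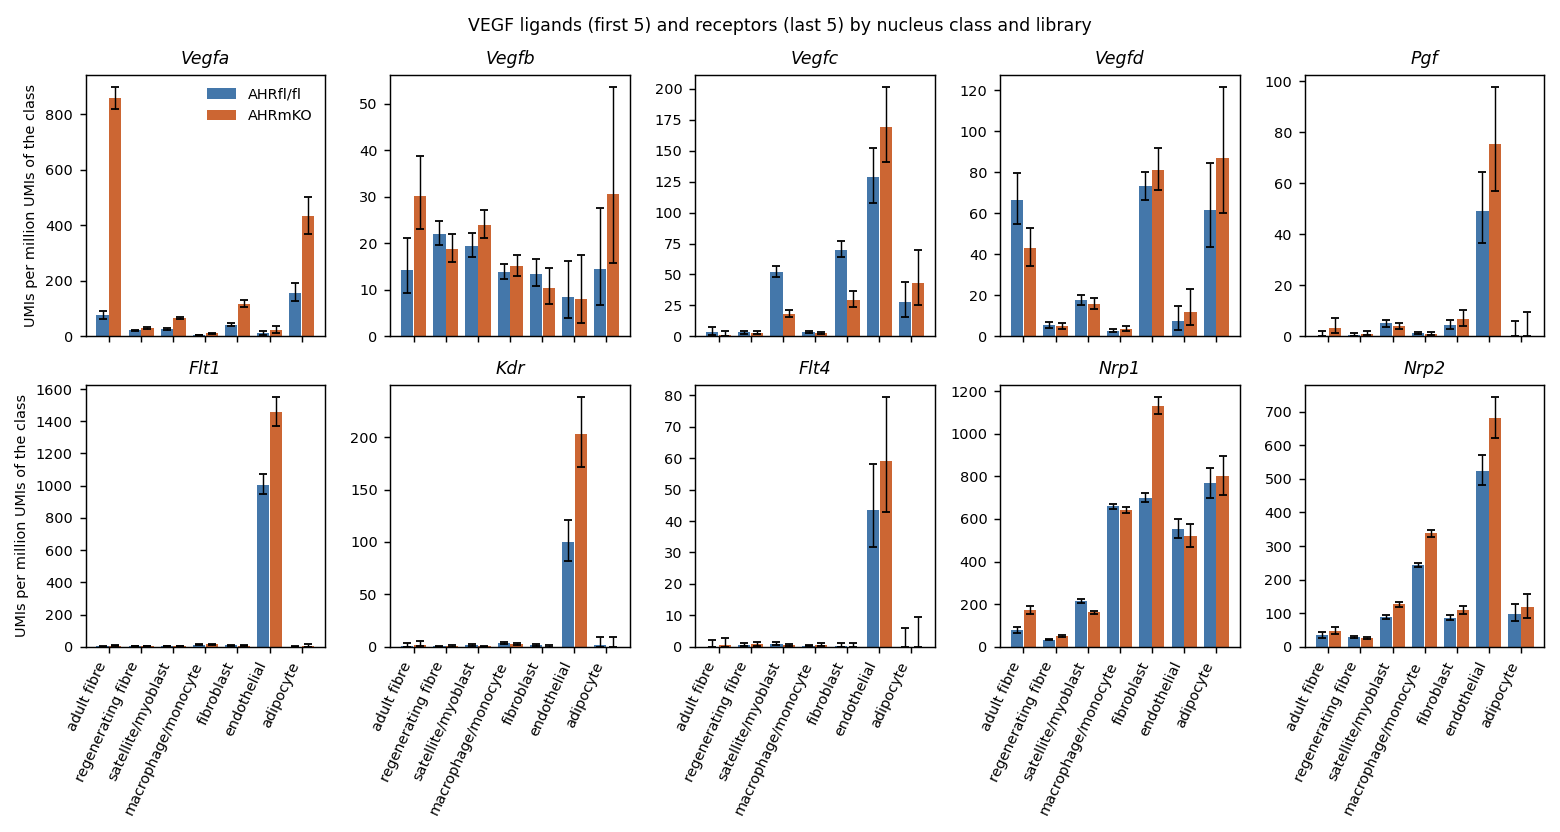
Bars give the level of each member in 7 nucleus classes in CPM, for the AHRfl/fl library (blue) and the AHRmKO library (orange); whiskers are exact 95% Poisson intervals for counting error. The Vegfa bars of adult fibre nuclei, 76.6 and 857 CPM, come from different clusters, since 520 of the 588 nuclei of the AHRmKO library lie in cluster 19, and cluster 6 gives 76.4 and 245 CPM, while Flt1, Kdr, Flt4 and Pgf are at or near the axis outside endothelial-like nuclei.

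Vegfa (chromosome 17, 46016993 to 46032369, minus strand, GRCm38), the main ligand for endothelial growth, was found in muscle fibre, adipocyte and stromal nuclei. In the AHRfl/fl library its level was 157 CPM (127 to 192, 97 UMIs) in adipocyte-like nuclei. Cluster 6, which held the adult fibre-like nuclei of this library but had none of their markers among its leading genes, followed at 76.4 CPM (64.0 to 90.5, 133 UMIs). Fibroadipogenic or fibroblast-like nuclei, the stromal cells of muscle, stood at 42.0 CPM, satellite cell or myoblast-like nuclei at 26.8 and regenerating fibre-like nuclei at 21.8. Endothelial-like nuclei had 10.4 CPM and macrophage or monocyte-like nuclei 5.21, values whose intervals overlap the level expected from free RNA, 3.32 to 9.44 CPM. In this order endothelial-like and macrophage-like nuclei did not differ beyond counting error, and the other neighbours did.

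In the AHRmKO library cluster 19 stood at 946 CPM (902 to 993, 1693 UMIs), adipocyte-like nuclei at 432 CPM (370 to 503, 169 UMIs) and cluster 6 at 245 CPM (189 to 313, 64 UMIs). Without cluster 19, which held 2 nuclei of the AHRfl/fl library, adipocyte-like nuclei led in both libraries. The fibroblast-like, satellite cell-like and regenerating fibre-like nuclei followed at 117, 65.8 and 31.2 CPM. Endothelial-like nuclei had 22.8 CPM (13.3 to 36.6) and macrophage-like nuclei 11.7 (9.78 to 13.8), both above the free RNA level of 7.21 to 7.58 CPM.

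The plot of shares gives the classes that held Vegfa RNA in each library. Adult fibre-like nuclei were 2.36% of the nuclei and held 8.70% (7.34% to 10.2%) of the Vegfa UMIs in the AHRfl/fl library. In the AHRmKO library they were 7.82% of the nuclei, mostly in cluster 19, and held 52.3% of the Vegfa UMIs. Satellite cell-like nuclei held 19.6% in each. Differentiating myocyte-like nuclei held 11.6% in the AHRfl/fl library, at 29.4 CPM (25.3 to 34.1) in 1321 nuclei. The AHRmKO library had 3 such nuclei, with 1 Vegfa UMI. A share of a gene's UMIs depends on how many nuclei of a class were captured as well as on the level in each.

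**Figure D2:**
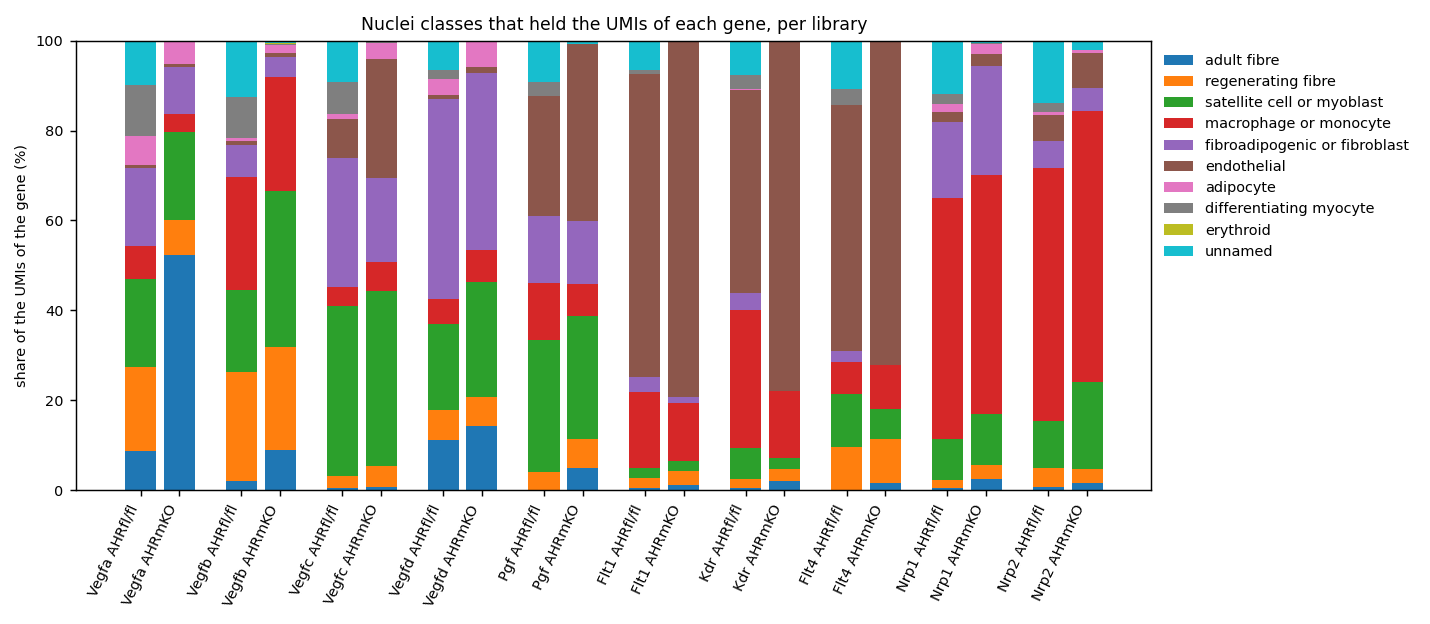
Stacked bars divide the UMIs of each member (percent) over the nucleus classes, 1 bar per library. Adult fibre nuclei hold 8.70% of the Vegfa UMIs of the AHRfl/fl library, almost all from cluster 6, and 52.3% of those of the AHRmKO library, where 520 of 588 such nuclei lie in cluster 19, and endothelial-like nuclei hold 67.4% and 79.0% of the Flt1 UMIs.

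Within cluster 6, Vegfa had 133 UMIs and 76.4 CPM in the AHRfl/fl library and 64 UMIs and 245 CPM in the AHRmKO library. The ratio was 3.21-fold, a log2 ratio of 1.68 (1.23 to 2.12). A ratio is called here when it passes 2-fold and its interval excludes 0 on the log2 scale, and 7.43% of the 7453 genes with 30 or more UMIs in this cluster were called higher. The nuclei of cluster 6 were not alike in other respects: Myh4, the myosin of fast glycolytic fibres, had 1479 and 4345 CPM, the mitochondrial share was 0.69% and 2.36%, Gm42418, a gene that overlaps ribosomal RNA, had 2665 and 26531 CPM, and the median ratio over all genes was -0.14. Embryonic and neonatal myosin genes went the other way: Myh3 had 361 and 80.5 CPM, and Myh8 had 95.9 and 3.83 CPM. The part of these differences in the Vegfa ratio was not tested.

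Within the AHRmKO library, cluster 19 had 946 CPM of Vegfa (902 to 993, 1693 UMIs) against 245 in cluster 6, a difference of 3.86-fold (log2 1.95, 1.59 to 2.33). Both values come from 1 library and share its free RNA, which was expected to add at most 7.58 CPM of Vegfa.

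The difference lay across most nuclei of cluster 19 rather than in a few. With each nucleus thinned to 2000 UMIs, 76.7% of its 520 nuclei had a Vegfa UMI (72.9% to 80.3%), and 50.4% had 2 or more. Cluster 6 had a Vegfa UMI in 14.8% of nuclei in the AHRfl/fl library and in 39.7% in the AHRmKO library. Unthinned, the shares were 85.0% in cluster 19 and 27.8% and 52.9% in cluster 6, at median depths of 2931, 4297 and 3398 UMIs. In macrophage-like nuclei, where Vegfa had 5.21 and 11.7 CPM, the thinned shares were 1.03% and 1.94%, at median depths of 2902 and 3282.

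Single nuclei of cluster 19 ranged from 0 to 10 thinned Vegfa UMIs, and the variance was 1.84 times the mean, where counting alone gives about equal values. The highest 10% of its nuclei held 30.7% of the thinned Vegfa UMIs. In cluster 6 the ratio of variance to mean was 1.09 and 1.15, with highest values of 2 and 3 UMIs. The thinned means were 2.03 in cluster 19 and 0.17 and 0.53 in cluster 6. At equal relative spread this ratio rises with the mean, so it does not compare the spread of the 2 clusters. Regenerating fibre-like nuclei had a Vegfa UMI in 4.09% and 5.87% after thinning.

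**Figure D3:**
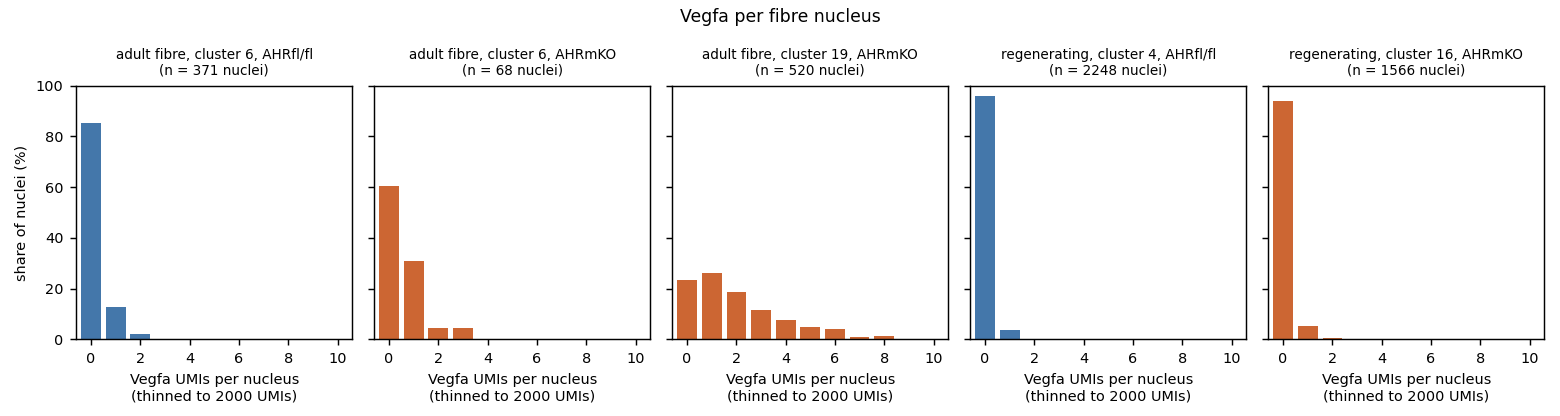
Histograms give the share of nuclei (percent) by number of Vegfa UMIs after thinning each nucleus to 2000 UMIs, for 2 adult fibre clusters and 2 regenerating fibre clusters. Cluster 19 of the AHRmKO library spreads up to 10 UMIs with 76.7% of nuclei above 0, while in the regenerating clusters most nuclei have 0.

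Depth was read in 3 ranges, of 2000 to under 3000 UMIs, 3000 to under 5000 and deeper. In cluster 6 the AHRfl/fl library had 76.0, 92.4 and 64.5 CPM of Vegfa in these ranges and the AHRmKO library 269, 262 and 208, and in each range the 2 intervals did not overlap. Cluster 19 of the AHRmKO library had 1012, 1067 and 654 CPM, the lowest in the deepest nuclei.

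In adult fibre-like nuclei of the AHRmKO library, Vegfa also differed with the leading myosin gene of the nucleus. In cluster 19, the 190 nuclei with most of their adult myosin UMIs from Myh1, the myosin of type 2X fibres, had 1445 CPM of Vegfa (1356 to 1538). The 311 nuclei led by Myh4 had 588 CPM (542 to 637). In the AHRfl/fl library, 47 adult fibre-like nuclei led by Myh1 had 57.6 CPM (30.6 to 98.4) and 241 led by Myh4 had 74.8 (60.0 to 92.3). A further 83 of its 373 adult fibre-like nuclei had no adult myosin UMI and stood at 96.3 CPM (66.7 to 135). All these intervals overlap. Within cluster 6 the nuclei led by Myh4 had 74.6 CPM in the AHRfl/fl library (239 nuclei) and 242 CPM in the AHRmKO library (56 nuclei, 181 to 316).

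**Figure D4:**
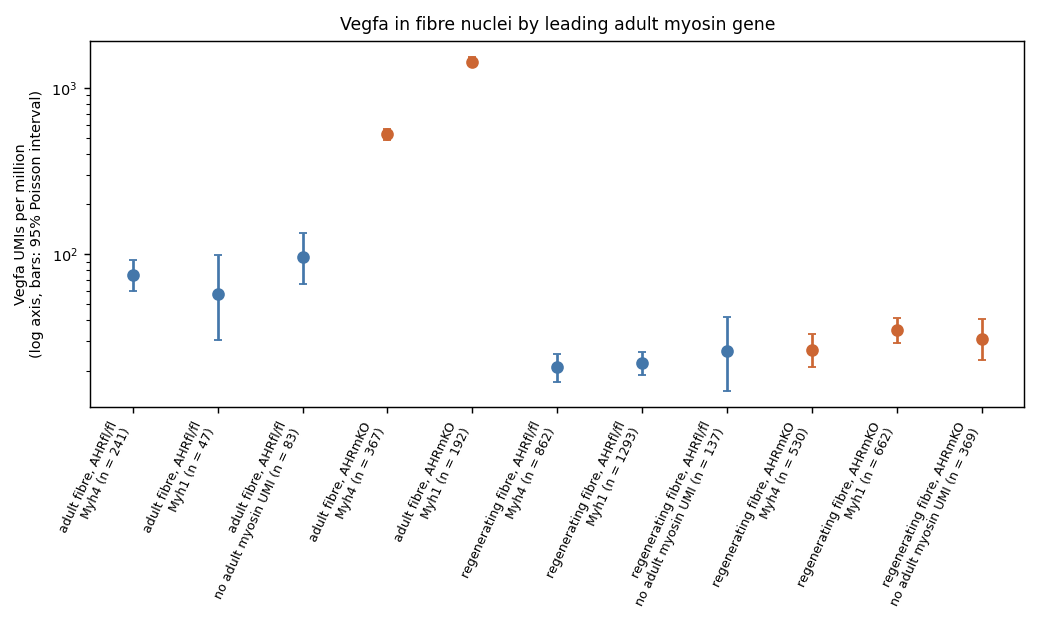
Points give Vegfa in CPM (log axis) in adult and regenerating fibre nuclei grouped by the adult myosin gene (Myh4, Myh1 or none found) with the most UMIs; bars are 95% Poisson intervals, blue is the AHRfl/fl library and orange the AHRmKO library. Adult fibre nuclei of the AHRmKO library stand at 528 CPM (Myh4) and 1433 CPM (Myh1), above all other groups shown, and most of these nuclei lie in cluster 19.

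Regenerating fibre-like nuclei, which carry embryonic and neonatal myosin genes, differed less. Vegfa had 287 UMIs and 21.8 CPM in the AHRfl/fl library and 261 UMIs and 31.2 CPM in the AHRmKO library, a log2 ratio of 0.52 (0.27 to 0.76) that was not called. In cluster 16 alone the direction turned: 49 nuclei of the AHRfl/fl library had 13 Vegfa UMIs (74.4 CPM) and 1566 of the other had 261 (31.3 CPM), a log2 ratio of -1.25 (-2.05 to -0.32). Of the 49 nuclei, 41 had no Vegfa UMI, 6 had 1 and 2 had 3 to 4, so the value rests on few nuclei. Thinned shares with a Vegfa UMI were 8.16% (2.27% to 19.6%) and 5.87% (4.76% to 7.16%), intervals that overlap. The share of genes called was 9.02% higher and 17.4% lower in the whole class, and 2.2% and 6.66% in cluster 16.

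Outside fibres, Vegfa was called higher in the AHRmKO library in adipocyte-like, fibroblast-like and satellite cell-like nuclei. Cluster 10 (7 and 22 UMIs, 2.65 and 9.32 CPM) and endothelial-like nuclei (11 and 17 UMIs, 10.4 and 22.8 CPM) had under 30 UMIs and could not be called. The intervals of cluster 10 reach the level expected from free RNA. In adipocyte-like nuclei the levels were 157 and 432 CPM, a log2 ratio of 1.46 (1.09 to 1.84), where 7.73% of genes were called higher. In fibroblast-like nuclei they were 42.0 and 117 CPM, a log2 ratio of 1.48 (1.24 to 1.71), with a background of 5.81%. In satellite cell-like nuclei, the stem cells of muscle and their progeny, they were 26.8 and 65.8 CPM, a log2 ratio of 1.30 (1.10 to 1.50), with a background of 7.1%. The satellite cell-like value rests on 3 clusters in unequal shares: in cluster 7, with 888 and 752 nuclei, the levels were 40.4 and 72.4 CPM and the ratio of 0.84 (0.58 to 1.11) was not called, where 5.78% of genes were called higher. Cluster 15 had 40.1 and 61.6 CPM (log2 0.62, -0.10 to 1.44), also not called, with a background of 6.88%. Cluster 9, with 1654 and 40 nuclei, had 15.8 and 42.3 CPM from 99 and 14 UMIs (log2 1.42, 0.50 to 2.24), called higher against a background of 2.88%. Thinned shares of nuclei with a Vegfa UMI were 29.0% and 48.7% in adipocyte-like, 6.45% and 18.2% in fibroblast-like and 4.64% and 12.2% in satellite cell-like nuclei.

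Free RNA carried Vegfa too. In barcodes of 200 to under 500 UMIs, which are taken here as free RNA, Vegfa had 19.1 CPM in the AHRfl/fl library and 40.1 in the AHRmKO library. The free RNA expected in a nucleus came to 3.32 to 9.44 CPM and 7.21 to 7.58 CPM, below the fibroblast-like and satellite cell-like levels of both libraries.

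Vegfb (chromosome 19, 6982473 to 6987651), a ligand of VEGFR-1 known for roles in muscle metabolism, ran over the 7 classes from 8.51 to 22.0 CPM in the AHRfl/fl library and from 8.06 to 30.7 CPM in the AHRmKO library. In the AHRfl/fl library regenerating fibre-like nuclei (22.0, 19.6 to 24.7) stood above macrophage-like (13.9, 12.3 to 15.5) and fibroblast-like ones (13.5, 10.8 to 16.7), although neighbours in the order did not differ beyond counting error. In the AHRmKO library satellite cell-like nuclei (24.0) stood above regenerating fibre-like (18.9) and these above macrophage-like ones (15.1). In endothelial-like nuclei of the AHRfl/fl library its 9 UMIs (8.51 CPM, 3.89 to 16.2) were not above the free RNA level of 5.30 CPM. None of its 4 ratios between libraries was called.

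Vegfc (chromosome 8, 54077606 to 54187096), the main ligand of VEGFR-3, was highest in endothelial-like nuclei. These had 129 CPM (108 to 152, 136 UMIs) in the AHRfl/fl library and 169 CPM (141 to 202, 126 UMIs) in the AHRmKO library, a log2 ratio of 0.40 (0.04 to 0.76) that was not called. Fibroblast-like nuclei had 447 UMIs and 70.1 CPM in the first and 89 UMIs and 29.6 CPM in the second, which was called lower (log2 -1.25, -1.59 to -0.92) against a background of 17%. Satellite cell-like nuclei had 591 UMIs and 52.4 CPM against 184 UMIs and 18.3 CPM, also called lower (log2 -1.51, -1.76 to -1.27), against a background of 17.4%. In cluster 7 alone the satellite cell-like levels were 73.5 and 25.4 CPM, a log2 ratio of -1.53 (background 13.3%). The ratio was not called in cluster 15 (22.5 and 11.9 CPM, log2 -0.92, -1.94 to 0.27) or cluster 9 (38.6 and 24.2 CPM, log2 -0.68, -1.90 to 0.33), from 9 and 8 UMIs in the library with fewer nuclei. With each nucleus assigned by its marker score instead of its cluster, the satellite cell-like ratio was -0.75 and was not called. Calls toward lower were common in both classes. Fibre and macrophage-like nuclei had at most 3.43 CPM in either library. Satellite cell-like nuclei held most of the Vegfc UMIs of any class, 37.8% and 38.7%.

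Vegfd (chromosome X, 164373378 to 164402650), the other ligand of VEGFR-3, was shared by stromal, adipocyte and adult fibre nuclei. The AHRfl/fl library had 73.1 CPM in fibroblast-like, 66.3 in adult fibre-like and 61.5 in adipocyte-like nuclei, which did not differ beyond their intervals. The AHRmKO library had 87.0 in adipocyte-like, 81.0 in fibroblast-like and 42.9 in adult fibre-like nuclei. Regenerating fibre-like nuclei had 5.39 and 4.90 CPM. None of the 5 ratios between libraries was called, and in cluster 6 the levels were 66.6 and 53.6 CPM (log2 -0.31, -1.23 to 0.49).

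Pgf (chromosome 12, 85166635 to 85177790), a ligand of VEGFR-1, had its highest level in endothelial-like nuclei. Endothelial-like nuclei had 52 UMIs and 49.2 CPM (36.7 to 64.5) in the AHRfl/fl library and 56 UMIs and 75.2 CPM (56.8 to 97.7) in the other, a log2 ratio of 0.61 (0.04 to 1.19) that was not called. The next class had 5.05 and 6.64 CPM. Among endothelial-like nuclei its UMIs were concentrated: 19 of 244 and 16 of 132 had any. By number of UMIs, satellite cell-like nuclei held 57 (29.2%) in the AHRfl/fl library, more than the 52 (26.7%) of endothelial-like ones. In the AHRmKO library they held 39 (27.5%).

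Flt1 (chromosome 5, 147561604 to 147726011), the receptor that binds VEGF-A without strong signalling, was found in most endothelial-like nuclei. Endothelial-like nuclei had 1065 UMIs and 1007 CPM (948 to 1070) in the AHRfl/fl library and 1086 UMIs and 1459 CPM (1374 to 1548) in the AHRmKO library. The log2 ratio of 0.53 (0.41 to 0.66) excluded 0 and was not past 2-fold, and it shrank to 0.14 when every nucleus was thinned to 2000 UMIs. Thinned shares of endothelial-like nuclei with Flt1 were 77.5% and 80.3%, against 0.599% and 0.536% in satellite cell-like nuclei.

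Macrophage-like nuclei had low Flt1 above the level of free RNA. They held 267 UMIs at 12.3 CPM and 177 UMIs at 15.2 CPM, where free RNA was expected to give at most 5.56 and 4.54. In the AHRfl/fl library these UMIs were uneven between clusters. Cluster 12, whose leading genes include Atp6v0d2 and St18, had 25.4 CPM, 3.83 times the 6.63 of cluster 2, which was led by F13a1 and Mrc1, genes known in resident macrophages. The leading genes of cluster 12 also include Il7r, a marker used here for T and NK cells, and the cluster held 1504 and 25 nuclei, so its level is given for the first library alone. Thinned shares of macrophage-like nuclei with Flt1 were 2.07% and 1.90%.

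Kdr (chromosome 5, 75932827 to 75978458), the main signalling receptor for VEGF-A, had 106 UMIs and 100.2 CPM (82.1 to 121) in endothelial-like nuclei of the AHRfl/fl library and 151 UMIs and 203 CPM (172 to 238) in the AHRmKO library. The log2 ratio was 1.02 (0.65 to 1.39), just past the 2-fold limit, and 4.63% of the 8199 genes tested in this class were called higher. The call ended when each nucleus was thinned to 2000 UMIs (log2 0.62), at a minimum of 1000 UMIs per barcode (0.77), with free RNA of barcodes of at most 100 UMIs subtracted (0.74) and with the libraries clustered separately (0.95). The thinned shares of nuclei with Kdr were 19.3% and 23.5%. Among the other classes compared the highest level was 3.32 CPM, in macrophage-like nuclei of the AHRfl/fl library, above the free RNA level of at most 1.08. These held 30.6% of the Kdr UMIs of that library, against 45.1% in endothelial-like nuclei. In the AHRmKO library macrophage-like nuclei held 14.9%. Single clusters of the AHRfl/fl library stood higher: cluster 12 had 6.71 CPM (4.75 to 9.21, 38 UMIs), and cluster 1, left unnamed, had 12.5 CPM from 5 UMIs.

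Flt4 (chromosome 11, 49609263 to 49652739), the receptor of VEGF-C and VEGF-D, had 46 UMIs and 43.5 CPM (31.8 to 58.0) and 44 UMIs and 59.1 CPM (43.0 to 79.4) in endothelial-like nuclei, a log2 ratio of 0.44 (-0.19 to 1.07) that was not called. Each of the 6 other classes had under 1 CPM in both libraries. Prox1, the defining factor of lymphatic endothelium, was found in 9 endothelial-like nuclei of each library, and 5 and 1 of these had Flt4. Other lymphatic counts were unequal. The class held 28 and 12 UMIs of Prox1, 49 and 6 of Mmrn1 and 85 and 12 of Reln, the last 2 also lymphatic markers here. In 5 and 1 nuclei 2 or more lymphatic markers were found.

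The 3 receptor kinases overlapped within the endothelial-like nuclei. At least 1 of them was found in 226 of 244 nuclei (92.6%, 88.6% to 95.6%) and in 127 of 132 (96.2%, 91.4% to 98.8%). Flt1 and Kdr occurred together in 67 and 56 nuclei, and Kdr without Flt1 in 11 and 6. Both neuropilins occurred in 128 and 74 nuclei. A nucleus without a UMI may still express the gene, since these counts are unthinned at median depths of 3549 and 4102.5 UMIs.

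Nrp1 (chromosome 8, 128358604 to 128503363), the co-receptor for VEGF-A and class 3 semaphorins, was broad. In the AHRfl/fl library it had 767 CPM in adipocyte-like, 699.6 in fibroblast-like, 659 in macrophage-like and 552 in endothelial-like nuclei, and in the other library 801, 1132, 641 and 519.9. Satellite cell-like nuclei had 216 and 161 CPM. By number of UMIs macrophage-like nuclei held most of it, 53.7% and 53.2%. In regenerating fibre-like nuclei its 33.8 and 50.4 CPM lay within the free RNA levels expected, up to 68.1 and 50.1 CPM plus counting error. Adult fibre-like nuclei had 77.1 and 170 CPM, the second above free RNA, and cluster 6 had 77.5 and 61.3.

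Between libraries Nrp1 was higher in fibroblast-like nuclei of the AHRmKO library (log2 0.69, 0.63 to 0.76) and lower in satellite cell-like ones (log2 -0.42, -0.51 to -0.33), neither past 2-fold. Of the satellite cell-like clusters, cluster 7 had -0.40 (-0.54 to -0.26), while clusters 9 and 15 had 0.11 (-0.24 to 0.43) and 0.23 (-0.18 to 0.66). In endothelial-like nuclei the log2 ratio was -0.09 (-0.28 to 0.10), in adipocyte-like 0.06 (-0.15 to 0.27) and in cluster 10, the cycling macrophage-like nuclei, -0.02 (-0.12 to 0.08).

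Nrp2 (chromosome 1, 62703285 to 62818695), a co-receptor for VEGF-C and semaphorins, was among the 7 classes highest in endothelial-like nuclei with 525 CPM (482 to 570) and 681 CPM (623 to 743). Macrophage-like nuclei followed with 244 and 338 CPM and held 56.2% and 60.3% of its UMIs. Cluster 1, which was left unnamed, stood higher. It had 608 CPM (534 to 689) in 138 nuclei of the AHRfl/fl library and 1000 CPM (827 to 1199) in 26 of the other. The ratios were above 0 with intervals that excluded it in 4 units: satellite cell-like (0.52), cluster 10 (0.40), endothelial-like (0.38) and fibroblast-like (0.33). None passed 2-fold. Of the satellite cell-like clusters, clusters 7 and 15 had 0.47 and 0.67, and cluster 9 had -0.25 (-0.95 to 0.38). The fibroblast-like ratio ran from -0.04 to 0.72 over 13 alternatives. Gene Gm29083 overlaps Nrp2 on the opposite strand and Gm37121 on the same one, and the sources used here do not give whether counting used the strand.

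**Figure D5:**
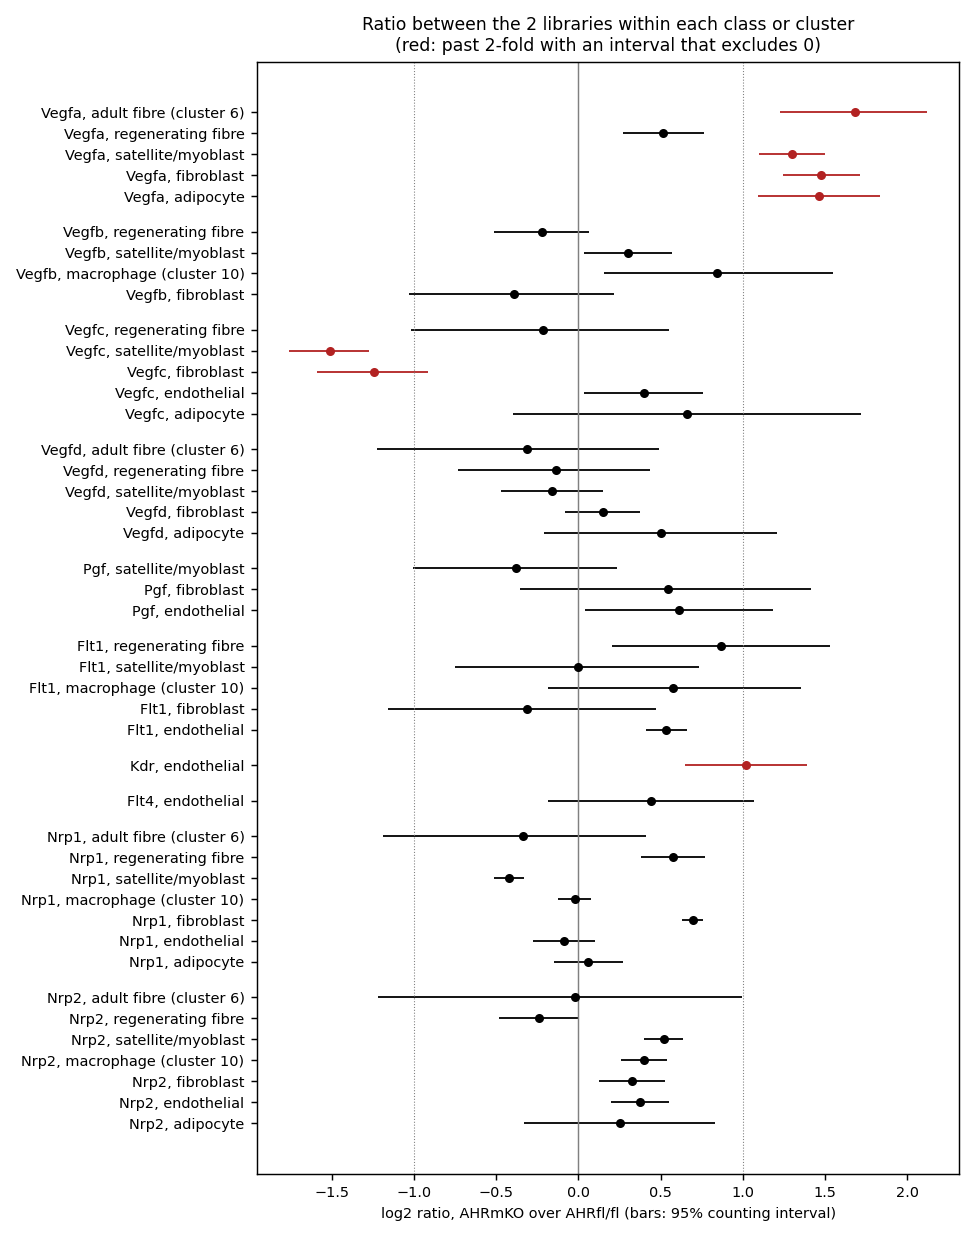
Points give the log2 ratio of the AHRmKO library over the AHRfl/fl library for each member with 30 or more UMIs in the 5 classes and 2 clusters (6 and 10) compared; bars are 95% counting intervals, dotted lines mark 2-fold and red marks ratios past 2-fold whose interval excludes 0. Of 43 ratios 7 are red: Vegfa in 4 units (1.30 to 1.68) and Kdr in endothelial-like nuclei (1.02) to the right, and Vegfc in satellite cell-like and fibroblast-like nuclei (-1.51 and -1.25) to the left. Over all genes 2.82% to 9.02% were called higher in these units and 11.5% to 17.4% lower. Clusters 7, 9, 15 and 16 are not plotted, and there Vegfa was called higher in cluster 9 (1.42) and lower in cluster 16 (-1.25), and Vegfc lower in cluster 7 (-1.53). The Vegfa value of cluster 16 rests on 13 UMIs in 49 nuclei of the AHRfl/fl library, and that of cluster 9 on 14 in 40 nuclei of the other.

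Genes that act with the members were taken from 7 lists with 77 genes. Beyond the 4 largest ratios per class and direction, genes are named where few of a list were called, and these were chosen after their values were seen. In cluster 6, 9 of 15 upstream factors of Vegfa had enough UMIs, 1 was called higher and 2 lower, with a median log2 ratio of 0.12 against -0.14 for all genes. The gene called higher was Egln3, an oxygen-sensing hydroxylase induced in hypoxia (24.1 and 57.5 CPM, log2 1.25, 0.30 to 2.13). The lower ones were Ppargc1a, a coactivator of oxidative metabolism that can induce Vegfa (294 and 99.6 CPM, log2 -1.56), and Esrrg, an oestrogen-related receptor (209 and 95.8 CPM, log2 -1.12). Cluster 19 of the AHRmKO library had 342 CPM of Ppargc1a and 519 CPM of Esrrg, above both values of cluster 6. Regenerating cluster 4 of the AHRfl/fl library had 247 and 410 CPM of these genes, with Vegfa at 21.1 CPM. The upstream factor Epas1 had 61.5 CPM in cluster 19, and 11.5 and 15.3 (20 and 4 UMIs) in cluster 6. Hif1a had 61.5 CPM in cluster 19, and 104 and 53.6 in cluster 6. The part of these genes in the Vegfa levels was not tested. Across cluster 6, 7.43% of genes were called higher and 11.9% lower. Regenerating fibre-like nuclei had Ppargc1a (log2 -1.17) and Esrrg (-1.31) lower as well, with Esrra (1.03) and Egln2 (1.29), a related hydroxylase, higher, 2 of 15 in each direction, where 9.02% of genes were called higher and 17.4% lower. That class lay in different clusters in the 2 libraries, and within cluster 16 none of 13 upstream factors was called either way: Ppargc1a had 68.7 and 107 CPM and Esrrg 115 and 164, from 12 and 20 UMIs in the 49 nuclei of the AHRfl/fl library. Egln2 and Esrra were also called higher in satellite cell-like nuclei, adipocyte-like nuclei and clusters 7 and 15. There 7.1%, 7.73%, 5.78% and 6.88% of genes were. Esrrg was called lower in adipocyte-like nuclei (11.5% of genes) but higher in cluster 15. No upstream factor was called in cluster 9.

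Targets of VEGF and tip cell genes were read in endothelial-like nuclei, where 8 of 12 had enough UMIs, 4 were called higher and none lower, with a median of 0.73 against -0.05 for all genes. Over all genes 4.63% were called higher there and 16.6% lower. Nr4a1, an immediate early nuclear receptor, had 14.2 and 47.0 CPM (log2 1.73, 0.82 to 2.71). Dll4, the Notch ligand of tip cells, had 47.3 and 105 CPM (log2 1.15, 0.62 to 1.69). The others were Hlx (1.07) and Rcan1 (1.01), the latter a calcineurin regulator induced by VEGF. These ratios were not repeated with thinned nuclei. The calls were not confined to endothelial-like nuclei. In fibroblast-like nuclei 3 of 8 genes of the list were called higher (Nr4a1, Egr3 and Hlx) and 2 lower, against 5.81% and 17% of all genes. Rcan1 was also called higher in cluster 12 of the macrophage-like nuclei, from 1504 and 25 nuclei. No share over all genes is given for that cluster. Nr4a1 was also called higher in cluster 6, cluster 10, satellite cell-like and fibroblast-like nuclei (log2 1.32, 1.30, 1.57 and 4.10), and in regenerating fibre-like nuclei it had 26.4 and 20.8 CPM (log2 -0.35, -0.62 to -0.08). In cluster 10, 2.82% of genes were called higher and 14.4% lower. Angpt2, the antagonist ligand of the receptor Tie2 and a tip cell gene, was called lower in the 6 other units compared. The log2 ratios were -3.84 in satellite cell-like, -3.75 in fibroblast-like, -3.18 in regenerating fibre-like nuclei and -3.15 in cluster 10, while adipocyte-like nuclei and cluster 6 had 2 and 1 UMIs in the AHRmKO library against 77 and 44. In cluster 16, the regenerating fibre-like cluster compared on its own, none of the 6 genes of the list with enough UMIs was called. In clusters 7, 9 and 15 Angpt2 was called lower. By comparison, in endothelial-like nuclei it had 98.4 and 64.5 CPM (log2 -0.61). In adipocyte-like nuclei the share called lower was 11.5%.

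Among partners of the receptors in endothelial-like nuclei, 1 of 11 was called higher, Itgb3 (integrin beta 3, log2 1.47, 1.01 to 1.94), and 1 lower, Gpc1 (a heparan sulphate proteoglycan, log2 -2.42), with a median of -0.06. Of the signal relay genes, 18 of 20 had enough UMIs, 1 was called lower (Prkcb, log2 -3.07) and none higher. The shares over all genes were 4.63% higher and 16.6% lower. Gpc1 was also called lower in fibroblast-like nuclei, cluster 10 and cluster 9, where 17%, 14.4% and 9.49% of genes were. Prkcb was also called lower in fibroblast-like nuclei. Among plexins, the signalling partners of neuropilins, Plxnd1 was called higher (185 and 372 CPM, log2 1.01) and Plxna1 lower (-1.33) of 4 with enough UMIs. Plxna1 was called higher in regenerating fibre-like (1.73) and satellite cell-like nuclei (1.35), and Plxna3 in these and in fibroblast-like nuclei. Plxnd1 was also called higher in regenerating fibre-like nuclei, where 9.02% of genes were. In cluster 15 Plxna3 was called higher, and no plexin was called in cluster 16, 7 or 9. Of 3 semaphorins 1 was called lower, Sema3a (log2 -1.24), which satellite cell-like nuclei also had at a lower level (341 and 158 CPM, log2 -1.11), as did cluster 7, though it was not called in clusters 9 and 15.

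Genes that process or trap VEGF ligands were called in both directions. The list median was -0.46 in regenerating fibre-like, -0.97 in satellite cell-like and -0.46 in fibroblast-like nuclei and -0.56 in cluster 10, against -0.04, -0.09, -0.06 and -0.03 for all genes. It was 0.14 in endothelial-like nuclei, 0.30 in adipocyte-like nuclei and -0.08 in cluster 6. In clusters 7, 9, 15 and 16 it was -0.61, -0.87, 0.47 and -1.73. Ccn2, a matrix protein that binds VEGF-A, was called lower in the first 4 (log2 -1.26, -1.72, -1.11 and -2.68) and in cluster 7, but not in cluster 9, 15 or 16. Mmp14, a membrane protease, was called lower in regenerating fibre-like nuclei (-1.27) and had 49 UMIs and 0 in cluster 6, and Mmp9, a secreted one, was called lower in satellite cell-like and fibroblast-like nuclei, with 6 and 2 UMIs in the AHRmKO library. Adamts1, a matrix protease that can bind VEGF-A, was called higher in endothelial-like (107 and 348 CPM, log2 1.70, 1.38 to 2.04), fibroblast-like (1.26) and adipocyte-like nuclei (3.32). Thbs1, thrombospondin 1, an inhibitor of angiogenesis, was called higher in regenerating fibre-like (1.44), fibroblast-like (1.38) and satellite cell-like nuclei (149 and 341 CPM). It was not called in cluster 7, 9, 15 or 16, and Adamts1 was called lower in clusters 9 and 15, where 9.49% and 14.1% of genes were. Adamts3, the protease that activates VEGF-C, was called lower in the fibroblast-like class, as Vegfc was (43.1 and 19.9 CPM, log2 -1.11, -1.54 to -0.71). There 2 of 7 genes of the list were called higher and 3 lower, against 5.81% and 17% of all genes.

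The genes with the pattern most like each member were ranked by Pearson's r of log2(CPM + 10) over 14 sums, 7 classes in 2 libraries, among 8031 genes. The points share libraries and free RNA, and the ranking is a description. For Vegfa they were Ndrg2 (0.94), Cntfr (0.94) and Amer1 (0.92), for Vegfc Cadps2 (0.95), Fam171a1 (0.94) and Fbxl7 (0.94), and for Vegfd Aldh1a1 (0.91), Slc7a6 (0.91) and Lrig3 (0.90). Flt1 was most like Pecam1, Egfl7 and Rab27a (each 0.99). Kdr was most like Vsig2, Gimap8 and Hoxb6 (0.997, 0.996 and 0.996), Flt4 most like Tie1, Klhl4 and Robo4 (0.999, 0.998 and 0.998), and Pgf most like Bace2, Cttnbp2 and Bcl6b (each 0.98). Nrp1 was most like Traf5, Peli2 and Smurf2 (each 0.95) and Nrp2 most like Mospd2 (0.97), Arhgap31 (0.95) and Numb (0.95). Vegfb was most like Timm44 (0.91) and Rbm28 (0.87).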

How the data were processed

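Nuclei were isolated from tibialis anterior muscle and sequenced with a 3′ droplet kit, per the labels' protocols. The deposited values are raw UMI counts per gene and barcode, made by the authors with Cell Ranger 7.0.1 on mm10 per the submitters' processing notes. The annotation, the use of intronic reads and the strand setting are not given in the sources used here. Genes were placed with GENCODE M21 and RefSeq GRCm38.p6.

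Barcodes with 2000 or more UMIs, at least 200 genes and mitochondrial UMIs up to 5% and 8.97% were kept, and the highest Scrublet doublet scores (0.4% per 1000 barcodes) were removed, leaving 15832 and 7522 nuclei. Nuclei were clustered jointly with scanpy 1.11.5 (2000 variable genes, 30 components, 15 neighbours, Leiden resolution 0.8), without the members and 77 related genes. Clusters were named from markers. The rules for leaving a cluster unnamed were set after seeing the data, as was the choice to compare adult fibres by cluster 6, macrophages by cluster 10, and clusters 7, 9, 15 and 16 on their own. Because names were rebuilt here, shares may differ from those of the study.

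Levels are UMIs of a gene, added over the nuclei of a class in a library, per 1000000 UMIs of the class (CPM), with exact Poisson intervals. Ratios are log2 of the AHRmKO library over the other, with exact conditional binomial intervals, for 30 or more UMIs over both libraries and 50 or more nuclei in each, or for a cluster compared on its own 20 or more. Shares have exact Clopper-Pearson intervals. Intervals are at 95%. Scripts were tested on simulated data. The members, lists and comparisons were chosen with earlier results of these data known. All members were read in the 7 classes with 50 or more nuclei in each library. Of the lists at most 4 genes were named per class and direction by size, with exceptions stated. For each member the 3 genes most like it in pattern were named, except 1 that is not reported here. With 1 library per group no paired fit, replicate left out or test between groups was run.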

Additional observations from a re-analysis of the deposited data

Results flagged for a closer look

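Nrp1 had ratios of both signs between classes, none past 2-fold. Its log2 ratio, AHRmKO over AHRfl/fl, was 0.69 in fibroblast-like nuclei, 0.58 in regenerating fibre-like nuclei and -0.42 in satellite cell-like nuclei, and each counting interval excluded 0. The regenerating fibre-like levels lie within the levels expected from free RNA, and that ratio ran from -0.62 to 0.96 over 12 alternatives and was negative in 2. Of the satellite cell-like clusters, cluster 7 had -0.40, and clusters 9 and 15 had 0.11 and 0.23 with intervals that include 0. The difference between classes was not tested.

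Vegfc had a log2 ratio of 0.40 in endothelial-like nuclei, which was not called, and was called lower in satellite cell-like (-1.51) and fibroblast-like nuclei (-1.25) of the AHRmKO library. The satellite cell-like ratio was not called in clusters 9 and 15 (-0.68 and -0.92) or by marker score (-0.75). This difference was not tested either, and each value rests on 1 library per group.

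Barcodes of 200 to under 500 UMIs, which are outside the nuclei compared and served as a free RNA profile, held 633 Vegfa UMIs (19.1 CPM) in the AHRfl/fl library and 1912 (40.1 CPM) in the AHRmKO library, a log2 ratio of 1.07. In the same barcodes Flt1 had a log2 ratio of 0.83, Nrp1 0.38, Vegfb -1.05 and Kdr -1.17. These barcodes held 21.9% and 42.0% of all UMIs of the 2 libraries.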

How the results depend on the processing

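No paired analysis was possible because each group has 1 library. No called ratio of the 5 classes or of clusters 6 and 10 changed direction under the 12 to 15 alternatives run for it. Vegfa, called lower in cluster 16 (-1.25, from 13 UMIs in 49 nuclei of the AHRfl/fl library), had 0.52 over the regenerating fibre-like class. The adult fibre ratio of Vegfa was 1.68 in cluster 6, 3.59 with libraries clustered separately, 3.46 with classes by marker score, 3.90 with fibres split by myosin and 3.48 over the whole class, an alternative added after seeing the data. The endothelial Flt1 ratio of 0.53 became 0.22 at a minimum of 1000 UMIs, 0.92 at 3000, 0.14 when thinned and 0.25 with free RNA subtracted (profile of at most 100 UMIs). The Kdr ratio of 1.02 became 0.62 when thinned. Its other values ran up to 1.29, and 9 of 13 passed 2-fold. The share of Vegfa UMIs in adult fibre nuclei of AHRfl/fl was 11.4% with the myosin split and 12.1% with free RNA subtracted (at most 100 UMIs). In AHRmKO it was 58.6% at a minimum of 1000 UMIs, 45.5% at 3000, 50.1% with libraries clustered separately, 62.3% thinned, and 56.5% and 56.3% with free RNA subtracted by either profile. The share of adult fibre nuclei with a Vegfa UMI was 11.2% and 56.2% by marker score, 7.63% and 57.0% by the myosin split, 27.9% and 81.3% unthinned (added after seeing the data) and, in AHRmKO, 64.4% at 3000 UMIs. Of 520 values of the 39 other ratios, 67 moved beyond their interval. Most missing values are of alternatives that do not apply to a ratio, such as the myosin split outside fibres, and a few of ratios left without enough UMIs or a class. The causes were not tested.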
